A study of Mus musculus with 7 samples.

Results

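Immediate early transcription factor genes were examined in the mesenteric artery of mice, a vessel that feeds the intestine. The genes were chosen by name, as Fos, Fosb, Jun, Junb, Egr1, Egr2, Egr3, Atf3, Nr4a1 and Ier2, and each was read from the array row that carries its symbol and no other. Such a row was found for 9 of the 10 genes, among 14860 distinct genes named in this way, and each of the 9 had 1 row. No row carries the symbol of Fosb, which was not analysed here. The arrays came from 3 male mice that express P467L, a dominant-negative mutant of human PPARγ, in vascular smooth muscle under the smooth muscle myosin heavy chain promoter, and from 4 non-transgenic littermates. The labels used here give neither age nor strain. Each array held the RNA of 1 mouse, amplified in a kit procedure, and the mutation was the only factor that the labels give. All values are log2 signals as the authors deposited them, and a difference of 1 on this scale is a 2-fold change.

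Immediate early genes are switched on within minutes of a stimulus, because the factors that drive them are already in the cell. Serum response factor (SRF) with its ternary complex partners, and the cAMP-responsive factor CREB, sit on their promoters and are activated by kinases. The products are themselves transcription factors: Fos and Jun proteins pair into AP-1, the Egr proteins are zinc finger factors, and Nr4a1 is an orphan nuclear receptor. In the vessel wall they are known to respond to stretch, injury, growth factors and vasoconstrictors. Their transcripts are short-lived, so their level at harvest follows recent signalling.

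The 7 arrays had medians from 6.29 to 6.34 and upper quartiles from 7.10 to 7.29. Both were highest in non-transgenic replicate 1, with the upper quartile of P467L replicate 2 close behind at 7.28. The lowest upper quartile was that of P467L replicate 3. Smooth muscle markers were bright on every array, with Acta2 between 11.94 and 12.08 and Myh11 between 11.32 and 11.57, which matches the labelled tissue. Arrays at both ends stood apart. P467L replicate 3 held the lowest value of the 7 arrays for 25.3% of all named genes and the highest for 2678 of the 14860, and it had the lowest of the array weights that limma estimates (0.33, against 0.75 for non-transgenic replicate 1). The mouse labelled non-transgenic replicate 1 held the highest value for 21.0% and the lowest for 7.82%. In non-transgenic replicate 1 the adipocyte markers were high, with a mean deviation of 0.80 from each gene's own mean, against -0.30 to 0.068 on the other 6 arrays. Adipoq, which codes for the fat cell hormone adiponectin, was at 10.69 in this mouse and between 8.45 and 9.62 in the others. In bulk tissue, fewer or more cells of a type and less or more RNA per cell cannot be told apart. For the 9 genes, results below that rest on non-transgenic replicate 1 are given with and without it. Differences of other genes are given over all 7 arrays only, and some of them rest largely on 1 mouse.

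Of the 9 genes, 5 were higher in non-transgenic replicate 1 than in any other mouse by at least 0.2: Fos, Jun, Junb, Egr1 and Egr2. Over all named genes that held for 4.46%. Fos, the AP-1 subunit that gives the family its name, was at 6.77, 6.17, 6.13 and 6.20 in non-transgenic replicates 1 to 4 and at 6.33, 6.20 and 6.18 in P467L replicates 1 to 3. The first mouse was thus 0.44 above the next highest, and the other 6 lay within 0.20 of each other. Its level was 1.52-fold that of the mean of the other 3 non-transgenic mice.

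Jun, the AP-1 partner of Fos, was at 7.72, 7.35, 7.37 and 7.31 in non-transgenic mice and at 7.37, 7.39 and 7.24 in P467L mice. Again the first mouse stood alone, 1.30-fold above the mean of its 3 group members, while the genotypes otherwise shared 1 range. Junb, a related AP-1 subunit with weaker activating capacity than Jun, was at 6.24, 5.87, 5.71 and 5.87 in non-transgenic and at 5.93, 5.91 and 5.94 in P467L mice. The 3 P467L values lay close together (SD 0.015) and inside the non-transgenic range.

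Egr1, the founding zinc finger factor of the Egr family and a mediator of the vascular injury response, was at 7.51, 7.24, 7.19 and 7.21 in non-transgenic mice and at 7.20, 7.24 and 7.24 in P467L mice. Without the first mouse the 6 remaining values spanned 0.050, the narrowest range of the 9 genes over those arrays. Egr2, best known for control of myelination in Schwann cells, was at 7.72 in non-transgenic replicate 1, at 7.0 in each of the other 3 non-transgenic mice, and at 6.85, 6.94 and 6.68 in the P467L mice. Its gap between the first mouse and the next was 0.72, or a 1.65-fold ratio to the other non-transgenic mice, the widest among the 9 genes. Egr2 was also the gene whose genotype groups did not overlap, with every P467L value below every non-transgenic one. The deposited values have 2 decimals, and ties of this kind occurred in other rows too.

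The other 4 genes did not share this profile. Atf3, a stress-induced ATF/CREB family member that often represses, was at 6.97, 6.91, 6.95 and 6.79 in non-transgenic and at 6.85, 6.91 and 6.74 in P467L mice. The first mouse was highest here too, but by 0.020. Nr4a1, which binds DNA without a known endogenous ligand, was at 6.46, 6.46, 6.44 and 6.42 in non-transgenic mice and at 6.57, 6.59 and 6.41 in P467L mice. The P467L values therefore sat above and below the narrow non-transgenic range.

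Egr3, a relative of Egr1 and Egr2, was at 5.10, 5.58, 5.20 and 5.23 in non-transgenic mice and at 5.65, 5.09 and 5.46 in P467L mice. The first mouse was among the lowest for this gene, and both genotypes covered almost the whole range. The row was dim, since the lower quartile of the arrays was 5.26 to 5.29. Ier2, a nuclear regulator induced with the AP-1 genes, was at 6.30, 6.30, 6.16 and 6.58 in non-transgenic and at 6.21, 6.05 and 6.30 in P467L mice. Its highest value came from non-transgenic replicate 4.

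**Figure D1:**
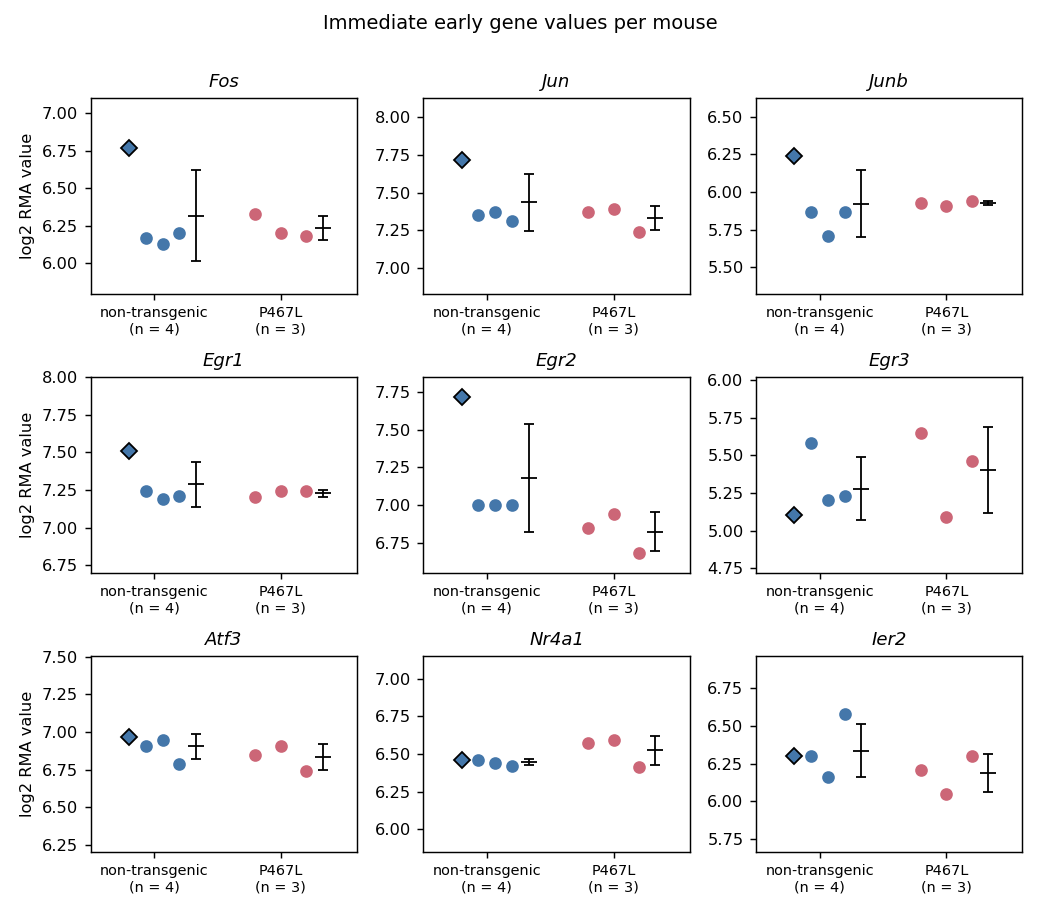
Log2 RMA value (vertical axis) of each immediate early gene in each mouse, by genotype (horizontal axis), with the mean and SD beside each group; every panel spans the same log2 width and the diamond is non-transgenic replicate 1. That mouse lies above all others for Fos, Jun, Junb, Egr1 and Egr2 (by 0.27 to 0.72) and the P467L values fall below the non-transgenic ones without overlap for Egr2.

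**Figure D2:**
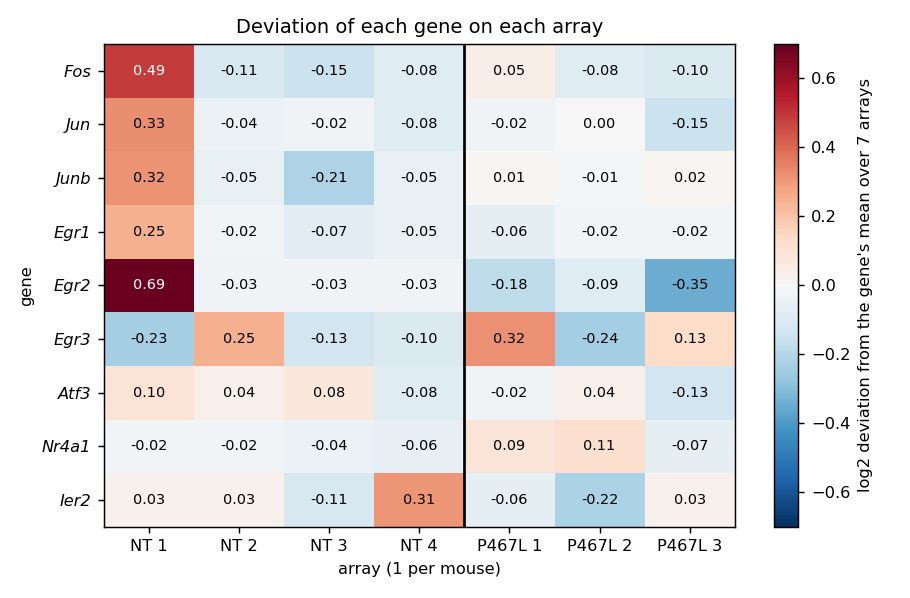
Deviation of each gene (rows) on each array (columns; NT, non-transgenic) from that gene's mean over the 7 arrays, on the log2 scale. The first column holds the largest positive deviations for Fos (0.49), Jun (0.33), Junb (0.32), Egr1 (0.25) and Egr2 (0.69), whereas Egr3 (-0.23) is negative there.

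The genotype comparison asks whether interfering with PPARγ in smooth muscle moved these transcripts. No immediate early gene was called: limma, fitted to all 23332 rows, put 0 of the 9 genes past an adjusted p of 0.05, against 0% of all rows. (The limma model pools the spread of all rows to steady the estimate for each.) None of the 9 reached an unadjusted p under 0.05, against 3.10% of all rows. Over all rows the smallest adjusted p was 0.709, and 724 rows had an unadjusted p under 0.05. Of the 9 genes, 6 had lower and 3 higher means in P467L artery, with a median difference of -0.072, and over all rows the median difference was -0.0025. The lean of the 9 genes turned on 1 mouse: without non-transgenic replicate 1, 5 had higher and 4 lower means, with a median difference of 0.013. For a single gene, the two-sided exact permutation p used here doubles the smaller tail. Its lowest possible value for 7 mice in these group sizes is 0.0571, so none could pass 0.05 in that test. Cell type markers also leaned one way between the genotypes: all 8 measured smooth muscle markers had lower means in P467L artery (median -0.17, list mean from -0.16 to -0.033 in P467L and from -0.014 to 0.18 in non-transgenic mice), with 0 called. All 7 macrophage markers had higher means (median 0.14), with 0 called, but their list mean overlapped, at 0.033, 0.36 and -0.14 in P467L replicates 1 to 3 and from -0.14 to 0.043 in non-transgenic mice. Their part in the early gene values was not tested.

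Egr2 had the largest difference. The non-transgenic mean was 7.18 ± 0.36 (SD, n = 4) and the P467L mean 6.82 ± 0.13 (SD, n = 3), which is 1.28-fold lower. The difference was -0.36, and its 95% interval reached from -0.86 to 0.14 (limma, adjusted p = 1; exact permutation p = 0.0571). Groups that do not overlap in this direction were found for 1 of the 9 genes and for 1.28% of all rows, and in either direction for 2.57% of all rows. Without non-transgenic replicate 1 the Egr2 difference was -0.18, with an interval from -0.37 to 0.014, so this mouse supplied much of its size. The lowest non-transgenic value was 7.0 and the highest P467L value 6.94. Leaving out a mouse cannot bring groups to overlap that did not before, so the lack of overlap without it adds no support.

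The other AP-1 and Egr genes differed by less than the SD of the 4 non-transgenic mice, which holds the high first mouse. Fos differed by -0.081 (95% interval -0.50 to 0.33), Jun by -0.10 (-0.38 to 0.17) and Junb by 0.0042 (-0.30 to 0.31), with adjusted p = 1 for each in limma. Egr1 differed by -0.061 (-0.27 to 0.15) and Egr3 by 0.12 (-0.30 to 0.54), also with adjusted p = 1 in limma. Without non-transgenic replicate 1 the signs of Fos and Egr1 turned, to 0.070 (-0.070 to 0.21) and 0.013 (-0.074 to 0.10), and Junb was at 0.11 (-0.035 to 0.26). The Fos and Junb differences then exceeded the SD of the 3 remaining non-transgenic mice (0.035 and 0.092). The intervals of Fos, Egr1 and Junb were narrower without that mouse and still included 0. Jun was at -0.010 without it, and Egr3 at 0.063. Leaving out P467L replicate 1 gave -0.0025 for Egr3, leaving out non-transgenic replicate 2 gave 0.22, and leaving out P467L replicate 2 gave 0.28. Without P467L replicate 3, Jun was at -0.058.

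The last 3 genes had intervals that included 0 over all 7 arrays. Nr4a1 differed by 0.078, with SDs of 0.019 (n = 4) in non-transgenic and 0.099 (n = 3) in P467L artery, and its 95% interval ran from -0.049 to 0.21 (limma, adjusted p = 1). Without P467L replicate 3, in which Nr4a1 was lowest, the difference was 0.135 and its unadjusted interval, from 0.061 to 0.21, left out 0 (limma, adjusted p = 0.736). With array weights it was 0.12, from 0.037 to 0.20 (limma, adjusted p = 0.332). Without P467L replicate 2 it was 0.045. Ier2 differed by -0.15 with an interval from -0.43 to 0.13, and Atf3 by -0.072 with an interval from -0.23 to 0.084 (limma, adjusted p = 1 for both). Ier2 differed by -0.067 when non-transgenic replicate 4 was left out and by -0.080 when P467L replicate 2 was, and the difference of Atf3 was -0.025 without P467L replicate 3 and -0.11 without non-transgenic replicate 4 or P467L replicate 2. A p that misses the threshold does not show equal levels in the genotypes, and these intervals give the sizes that the 7 arrays leave possible.

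**Figure D3:**
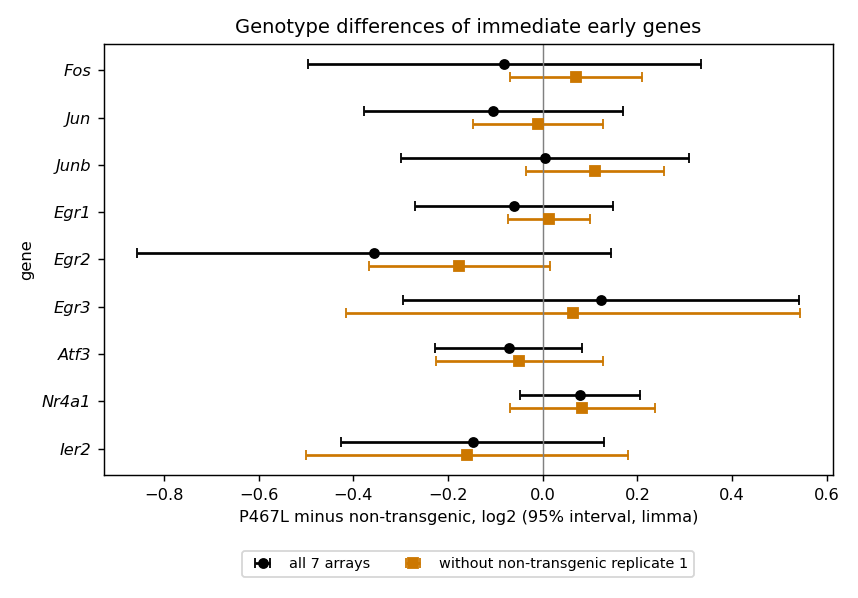
P467L minus non-transgenic difference of each gene (horizontal axis, log2) with its 95% interval from limma, for all 7 arrays (circles) and without non-transgenic replicate 1 (squares). All intervals include 0; the Egr2 difference is -0.36 with and -0.18 without that mouse, and Fos goes from -0.081 to 0.070.

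Covariation over the 7 arrays split the genes into a group that shared the first mouse and others that did not. The median Pearson r over the 36 pairs of genes was 0.11, with a range from -0.66 (Nr4a1 and Ier2) to 0.96 (Jun and Egr2). Over all pairs of named genes the median was 0.023. An r of 0.7 or more was reached by 11 pairs, or 30.6%, against 8.10% of all pairs. Of these, 10 are all the pairs among Fos, Jun, Junb, Egr1 and Egr2, with r from 0.71 to 0.96, and the remaining one is Jun and Atf3. This group of 5 was recognised after the values were seen and carries no test of its own.

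The correlations within that group rest on 1 mouse. Without non-transgenic replicate 1 their median r was -0.24, from -0.61 (Junb and Egr2) to 0.67 (Jun and Egr2). Over all 36 pairs the median was then 0.017, and 2 pairs, or 5.56%, were at 0.7 or more, against 9.71% of all pairs of named genes. The 2 are Jun with Atf3 (0.87) and Jun with Nr4a1 (0.72). With genotype means taken out and all 7 arrays kept, the 10 pairs stayed between 0.83 and 0.99.

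In exact permutation tests over the 5040 orders of the arrays, 3 of the 36 pairs had an unadjusted two-sided p under 0.05 for Pearson's r, and 0 passed after Benjamini-Hochberg adjustment over the 36. Fos and Junb had r = 0.92 (exact permutation p = 0.00794, adjusted p = 0.243) and Spearman's rho = 0.74 (exact permutation p = 0.0663, adjusted p = 0.632). Leaving out the 2 mice farthest from the Fos median gave r = 0.84 for this pair. Junb and Egr1 had r = 0.91 (exact permutation p = 0.0167, adjusted p = 0.243) and rho = 0.67 (exact permutation p = 0.114, adjusted p = 0.786), and r was -0.0078 without the 2 mice farthest from the Junb median. Jun and Egr2 had r = 0.96 (exact permutation p = 0.0202, adjusted p = 0.243) and rho = 0.47 (exact permutation p = 0.298, adjusted p = 0.935), with r = -0.47 without the 2 mice farthest from the Jun median. Without non-transgenic replicate 1 alone, all 3 pairs kept their sign, with r = 0.61 for Fos and Junb, 0.60 for Junb and Egr1 and 0.67 for Jun and Egr2.

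Jun and Atf3 were the pair whose rank order was most alike. Their r was 0.72 (exact permutation p = 0.0508, adjusted p = 0.378) and their rho 0.84 (exact permutation p = 0.0222, adjusted p = 0.632). The r was 0.73 without the 2 mice farthest from the Jun median and 0.87 without the first mouse alone. Nr4a1 and Ier2 ran in opposite directions, with r = -0.66 (exact permutation p = 0.115, adjusted p = 0.378) and rho = -0.64 (exact permutation p = 0.131, adjusted p = 0.786). Their r was -0.38 without the 2 mice farthest from the Nr4a1 median. The r of Jun and Atf3 thus did not fall when the first mouse was left out, but no pair passed the adjustment.

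**Figure D4:**
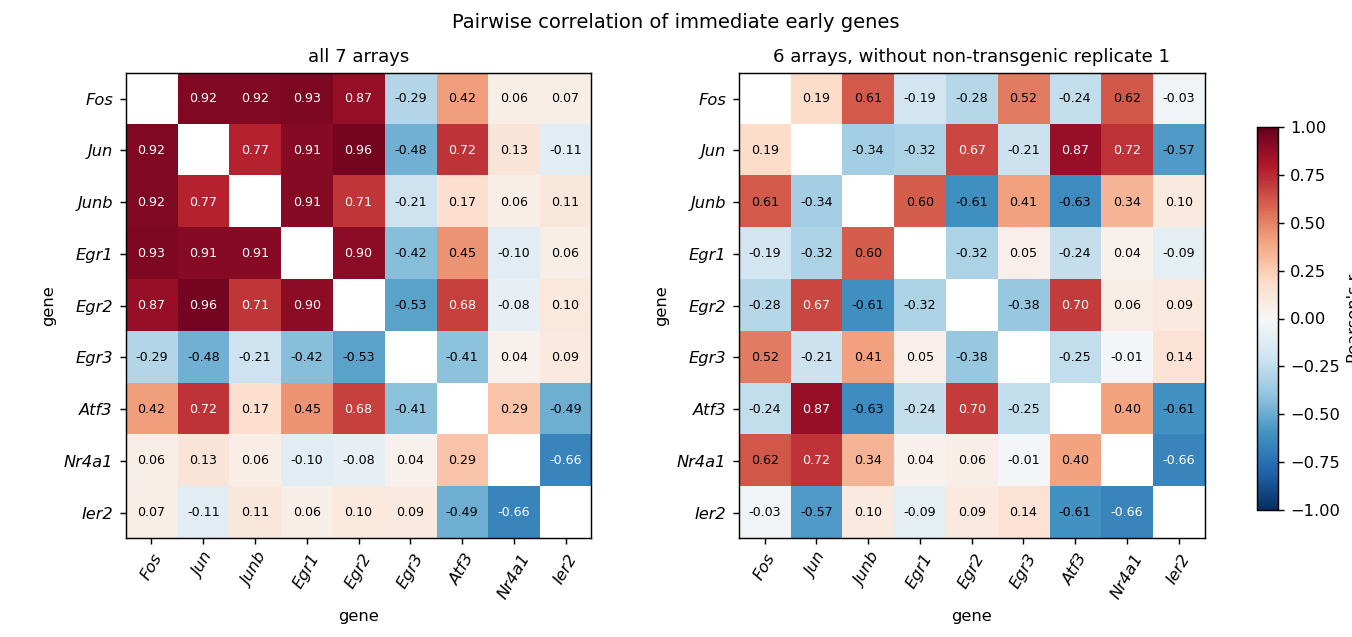
Pearson's r of each pair of immediate early genes over all 7 arrays (left) and over the 6 arrays without non-transgenic replicate 1 (right); rows and columns are genes. The block of Fos, Jun, Junb, Egr1 and Egr2 runs from 0.71 to 0.96 on the left and from -0.61 to 0.67 on the right.

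Promoters of 4 of the 5 genes that were high in the first mouse are shown next, with that of Nr4a1, which was not high there. Each run is the 250 bases before a RefSeq transcript start (GRCm38.p6), 5′ to 3′ on the gene's strand, and capitals mark motif matches on either strand. The motifs searched were the CArG box, which SRF binds, TGACGTCA, the full CREB site, TGACG, its core, which also lies inside the full site, TGANTCA, the AP-1 site, AAAGGTCA, the Nr4a site, GCGNGGGCG, the Egr site, and TATAAA. Windows of 7 of the 10 genes are counted here. No window was available for Egr3 and Ier2. Egr1, one of the 5 genes high in the first mouse, was left out of the search, so the counts say nothing of its promoter. Fos lies at chr12:85473640-85473889 (plus strand), Jun at chr4:95052223-95052472 (minus strand), Junb at chr8:84978749-84978998 (minus strand), and Nr4a1 at chr15:101266596-101266845 (plus strand). Egr2 has 5 listed windows, and the one at chr10:67537619-67537868 (plus strand) is shown as an example of the 4 that hold a CArG box. In order of position, windows 3 (the one shown), 4 and 5 overlap and hold the same box, and window 2 holds another.
Fos: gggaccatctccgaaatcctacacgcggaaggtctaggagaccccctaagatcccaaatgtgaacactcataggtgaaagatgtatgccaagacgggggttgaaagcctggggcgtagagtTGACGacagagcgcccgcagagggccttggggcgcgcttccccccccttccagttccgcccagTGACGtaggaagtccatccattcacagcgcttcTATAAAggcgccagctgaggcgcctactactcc
Jun: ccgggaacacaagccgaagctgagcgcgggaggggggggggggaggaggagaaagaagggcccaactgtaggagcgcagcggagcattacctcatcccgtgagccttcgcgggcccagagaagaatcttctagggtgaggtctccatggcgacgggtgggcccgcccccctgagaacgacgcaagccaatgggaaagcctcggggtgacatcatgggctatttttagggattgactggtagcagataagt
Junb: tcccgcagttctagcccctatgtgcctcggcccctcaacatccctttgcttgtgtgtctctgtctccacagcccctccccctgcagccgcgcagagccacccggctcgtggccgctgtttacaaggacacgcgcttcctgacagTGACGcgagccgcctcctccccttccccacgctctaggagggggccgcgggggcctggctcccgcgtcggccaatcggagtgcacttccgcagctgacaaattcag
Egr2: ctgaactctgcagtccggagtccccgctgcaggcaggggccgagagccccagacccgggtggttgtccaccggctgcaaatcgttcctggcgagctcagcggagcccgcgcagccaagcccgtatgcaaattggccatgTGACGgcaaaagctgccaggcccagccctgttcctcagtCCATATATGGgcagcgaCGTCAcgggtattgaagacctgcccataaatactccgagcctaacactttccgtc
Nr4a1: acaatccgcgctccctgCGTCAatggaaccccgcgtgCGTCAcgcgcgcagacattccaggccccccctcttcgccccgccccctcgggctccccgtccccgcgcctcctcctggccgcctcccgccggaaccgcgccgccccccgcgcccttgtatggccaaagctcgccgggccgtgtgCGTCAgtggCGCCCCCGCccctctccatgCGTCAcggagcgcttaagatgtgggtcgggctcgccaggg

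The core TGACG was the motif found most often. It was present in at least 1 window of 6 of the 7 genes and in 17.8% of all 32851 windows of this length. A gene counts here by any of its windows (Egr2 has 5), whereas the shares are per single window. The windows were also not matched for base content, so no enrichment can be read from these figures. In Fos the core began 129 and 66 bases before the start, with TATAAA at 33, and in Junb at 106. Nr4a1 had 4 matches, at 233, 213, 69 and 40, and an Egr site at 60. The shown Egr2 window had a CArG box at 72, flanked by TGACG at 111 and 55. Since it was chosen for the CArG box, its presence is a description; 1.47% of all windows hold one. Jun had no match to any of the 7 motifs in this window. The full CREB site, the AP-1 site and the Nr4a site were found in 0 of the 7 genes, against 1.55%, 6.75% and 1.34% of all windows. Only exact strings within 250 bases were searched, so a missing match does not show that a promoter lacks the site. These matches are letters in a window, not measured sites, and TGACG was found both in genes that were high in the first mouse and in Nr4a1.

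Other early response genes were set beside the 9. Of 22 measured transcription regulators of this kind, 0 were called, 14 had lower and 8 higher means in P467L artery, and the median difference was -0.038. The members with the smallest p were Maff (a small Maf factor, 0.14), Myc (-0.080) and Nr4a2 (a close relative of Nr4a1, -0.18), each with adjusted p = 1 in limma. In the first mouse Nr4a2 was at 6.76, and its other values lay between 6.18 and 6.41. In this list 4 genes were at least 0.2 higher in that mouse than in any other, namely Nr4a2, Klf6, Nfil3 and Ifrd1, of which the last 3 were named after their values were seen.

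Of 33 measured early response genes that do not code for transcription factors, 0 were called, 21 had lower and 12 higher means, and the median difference was -0.018. Il6, a cytokine gene, differed by -0.17 without overlap of the groups, Ccn1, a secreted matrix-associated protein gene, by -0.17, and Ier3, a survival regulator, by -0.086 (limma, adjusted p = 1 for each). Groups without overlap, in either direction, were found for 1 of the 33 genes and for 2.57% of all rows. The Il6 row was very dim, with all values between 2.66 and 3.11. In 5 of the 33 genes the first mouse was highest by at least 0.2: Zfp36l1, Sgk1, Tiparp, Il6 and Plk2. Zfp36l1, which promotes decay of early transcripts, was at 9.65 there and from 9.06 to 9.40 elsewhere.

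Averaged over each list, the first mouse was the highest array for all 3 sets of early genes. Its mean deviation was 0.22 for the 9 immediate early genes, where the other arrays lay between -0.077 and 0.013. It was 0.11 for the other regulators (-0.098 to 0.064 elsewhere) and 0.12 for the remaining early response genes (-0.081 to 0.043 elsewhere). The mean of the 33 genes followed that of the 9 with r = 0.85 over 7 arrays and 0.76 over the 6 without that mouse, as a description of arrays that share their normalization. For the 22 regulators r was 0.68 and 0.31. The 2 measured erythroid markers, Alas2 and Epb42, followed as closely, with r = 0.73 and 0.77, and their mean deviation was 0.27 in the first mouse and 0.32 in P467L replicate 1 against -0.295 to -0.045 elsewhere. Endothelial markers were also highest there, at 0.23 against -0.19 to 0.15. So were the AP-1 partner and Egr corepressor genes, at 0.071 against -0.086 to 0.0575, so a high list mean in the first mouse was not particular to the early genes. The adipocyte markers followed with r = 0.80 over 7 arrays and -0.50 over the other 6, and in 6 of 8 of them the first mouse was highest by at least 0.2. Heat shock genes had their extremes elsewhere, at 0.35 in P467L replicate 2 and -0.61 in P467L replicate 3, and were at 0.18 in the first mouse. The part of these other cell type markers in the high early gene values of that mouse was not tested.

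**Figure D5:**
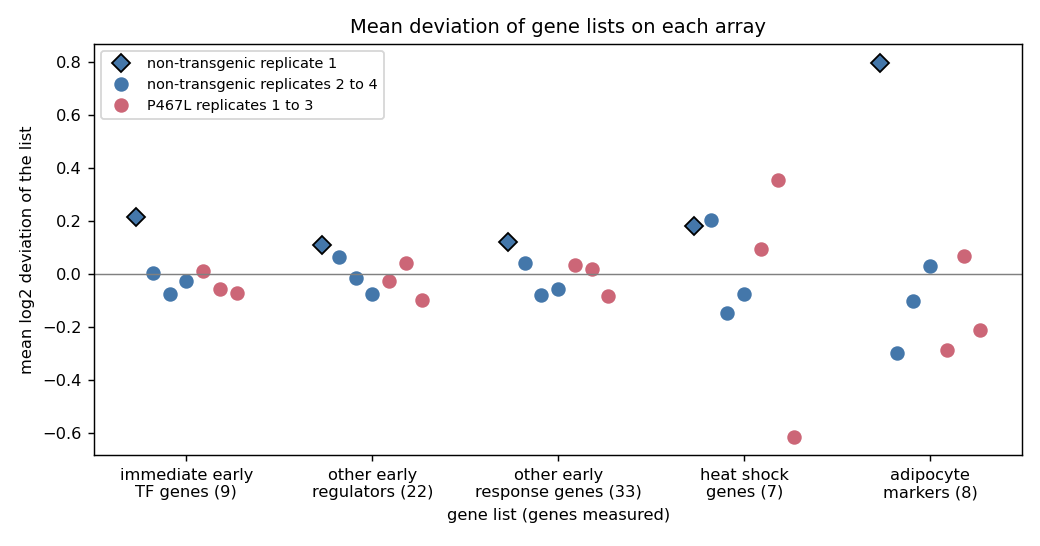
Mean log2 deviation (vertical axis) of 5 gene lists on each array, with the number of measured genes in brackets; the diamond is non-transgenic replicate 1 and each point is 1 array. That mouse is highest for the 9 immediate early genes (0.22), both other early response lists (0.11 and 0.12) and the adipocyte markers (0.80), but not for the heat shock genes (0.18).

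Genes that act upstream of the early response were also read. Of 16 measured SRF, ternary complex, CREB and kinase genes, 0 were called, 9 had lower and 7 higher means, and the median difference was -0.030. Creb1, the gene of the CREB factor, was at 10.45, 10.63, 10.50 and 10.53 in non-transgenic and at 10.67, 10.77 and 10.70 in P467L mice. These groups did not overlap, which in this direction held for 1.29% of all rows, and the difference was 0.19 with a 95% interval from 0.055 to 0.32 before adjustment (limma fitted across all rows, adjusted p = 1). Myocd, the SRF coactivator of the contractile program, differed by -0.40 and the ternary complex factor gene Elk1 by -0.11 (limma, adjusted p = 1 for both). Srf itself was between 7.05 and 7.13 on all arrays.

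AP-1 partner and Egr corepressor genes gave 0 calls among 8 measured, with 6 lower and 2 higher means and a median difference of -0.032. Mafg, a small Maf factor, was at 6.83, 6.70, 6.65 and 6.61 in non-transgenic and at 6.56, 6.55 and 6.27 in P467L mice. Its groups did not overlap, as held for 1 of the 8 genes and, in either direction, for 2.57% of all rows. The Mafg difference was -0.24 (limma, adjusted p = 1). Mafk differed by -0.10, and Nab2, which holds Egr proteins in check, by 0.037, with 6 of its 7 values at 7.49. Among 7 measured heat shock genes 0 were called, and the smallest p values belonged to the chaperone genes Hsph1 (-0.44), Hspa1a (-0.33) and Hsp90aa1 (0.072), the last in a very dim row.

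Last, the genes whose pattern over the 7 arrays was most like the mean of the 9 were listed, among 550 genes of at least median brightness and upper-quartile SD. The highest r was that of Mkrn1, a ubiquitin ligase gene, at 0.96. It was at 8.01 in the first mouse and from 6.93 to 7.25 on the other arrays, and its r over those 6 was 0.66. Next came Nip7, a ribosome assembly factor gene (0.92), Fahd1 (0.91), Hpgd, which inactivates prostaglandins (0.90), Ubxn2a (0.90), Fmc1 (0.90), Rida (0.89) and Wfdc21 (0.89). In all 8 the first mouse had the highest value of the 7 arrays. Without that mouse their r lay between -0.13 (Rida) and 0.66. The lowest r belonged to Lrrtm3 (-0.87), Olfr1411 (-0.84), Vmn1r233 (-0.79) and Olfr250 (-0.73), and in all 4 that mouse had the lowest value. Both counts follow largely from the choice by r, since the mean of the 9 peaks in that mouse.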

How the data were processed

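RNA of mesenteric artery was purified (Trizol, then a column), amplified and labelled, per the labels' protocols, and hybridised to the mouse exon 1.0 ST array. The authors deposited log2 values with 2 decimals, 1 per array and row, for which the submitters' processing notes list RMA, Affymetrix Power Tools and the mm9 build. Their versions and settings were not given in the sources. RMA normalizes between arrays and summarises probes, so values of different rows are not set against each other. Arrays have no read depth; their number sets the precision.

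Of 23332 rows, 14996 had 1 gene symbol in the platform annotation, 1019 several and 7317 none. Entrez identifiers of 14941 rows were found in RefSeq (GRCm38), which changed 0 symbols. A gene with several rows was represented by its brightest row. The model, with genotype alone, was fitted to all rows by lmFit and eBayes of limma (version 3.58.1, under R 4.3.3), with p adjusted by Benjamini-Hochberg across every row at 0.05 and 95% intervals, after the fit had been tested on simulated data. Correlations were tested exactly over the orders of the arrays. Replicates of a group were separate mice per the labels. Columns beside the 7 samples numbered 0.

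The members and gene lists were chosen with earlier results of these data known. Genes named are the members, up to 3 genes of smallest p per pathway list, and the 8 most and 4 least alike in pattern among genes at or above the median level and the 75th percentile of SD. Acta2, Myh11, Adipoq, Srf and the early genes highest in 1 mouse were named after their values were seen. Same-numbered mice of the groups had deviations that correlated at 0.12, -0.20 and -0.090, so the numbers were not taken as pairs. Promoter sequences are from RefSeq (GRCm38.p6). The alternatives tried were median centring, quantile normalization once more, dropping the dimmest 25% or 50% of rows, array weights, moderation with a robust trend, a test of rows with 1 symbol, rank correlation, genotype means taken out, the replicate number as a block, and each array left out in turn.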

Additional observations from a re-analysis of the deposited data

Results flagged for a closer look

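Within the 4 non-transgenic mice, replicate 1 lay far from the other 3 for 4 of the 9 genes. The gap to the next mouse, as a share of the group's range, was 0.891 for Fos, 0.854 for Jun, 0.844 for Egr1 and 1.00 for Egr2, all above Dixon's 95% value of 0.829 for 4 samples. For Egr2 the other 3 mice shared 1 value, so the share had to be 1.00. For untied values about 1 in 20 groups is marked by chance, but in these data the same comparison marked 3716 of the 14860 named genes, in any of the 4 mice. It marked 5.77% of them with this mouse high, against 4 of the 9 genes. Of the 16 list means, 0 were marked. The mean of the adipocyte markers, also highest in this mouse, was not marked.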

How the results depend on the processing

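Under every alternative run, limma called 0 rows and 0 of the genes, also with the replicate block, where non-transgenic replicate 4 has no partner. The same-numbered mice did not deviate together, and the block turned the Junb difference to -0.013. Array weights turned that of Fos to 0.047. With 1 array left out, the differences ran from -0.14 to 0.070 for Fos, -0.15 to -0.010 for Jun, -0.067 to 0.11 for Junb, -0.093 to 0.013 for Egr1, -0.42 to -0.18 for Egr2, -0.0025 to 0.28 for Egr3, -0.11 to -0.025 for Atf3, 0.045 to 0.135 for Nr4a1 and -0.21 to -0.067 for Ier2. Of 131 single differences under alternatives, 122 kept their sign and 9 did not, and the lowest adjusted p was 0.332. The median difference of the genes ran from -0.093 to 0.013. The median pairwise r was 0.11 in the main run. It fell to 0.030 after a further quantile normalization and to 0.032 with each array centred on its median. The median was 0.25 with genotype means taken out, and ran from 0.017 to 0.30 with 1 array left out. It was 0.57 with the lowest 50% of rows left out. There 10 pairs remained, because Fos, Junb, Egr3 and Ier2 lay in that dimmer part. Each gene had 1 row, so the mean of several rows gave no other value. Signal over background is not known for these rows, and the dim rows of Egr3, Il6 and Hsp90aa1 limit what their values show.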

Other observations

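Heat shock genes are another set of quickly induced transcripts. Hspa1a, the inducible chaperone gene, was at 7.78, 8.43 and 6.56 in P467L replicates 1 to 3 and between 7.46 and 8.27 in non-transgenic mice. Hsph1, its cochaperone gene, was at 8.21, 8.65 and 6.80 in the P467L mice and between 7.60 and 8.76 in the others. P467L replicate 3 was thus the lowest of the 7 arrays for both. Among the immediate early genes it was lowest for Jun (7.24), Egr2 (6.68), Atf3 (6.74) and Nr4a1 (6.41), and among all named genes for 25.3%. It was not the lowest for the rest of the 9 genes. Its Fos value of 6.18 lay within the range of the other mice apart from non-transgenic replicate 1. The mean deviation of the heat shock genes followed that of the 9 immediate early genes with r = 0.40 over the 7 arrays. Without non-transgenic replicate 1 the r was 0.49, and both are descriptions with no test.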
